A study of Mus musculus with 8 samples.

Results

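Broad regions of open chromatin at the ends of protein-coding genes were examined in mouse leukemia. A region was taken when it spanned at least 1500 bp, when its centre lay within 1 kb of either end of a protein-coding gene, and when it lay on an autosome (chromosomes 1 to 19). These criteria use width and position only and no fold change. They selected 4483 of the 160978 regions in the table, near 5122 distinct protein-coding genes. They make up 28.2% of the 15904 autosomal regions at such gene ends and 47.1% of the 9520 autosomal regions of that width. The other regions of these kinds, 11421 narrower regions at gene ends and 5037 broad regions away from gene ends, serve as the comparison.

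The study applied ATAC-seq, in which a transposase cuts and tags accessible DNA, to cKit+ marrow cells sorted free of lymphoid and erythroid cells, a fraction of hematopoietic stem and progenitor cells. The labels give 8 mouse libraries. The 4 from acute myeloid leukemia (AML) are 2 of genotype URE-delta/+;Tet2+/- and 2 of genotype URE-delta/+;Tet2-/-. The 4 labelled normal are 1 each of URE+/+;Tet2+/+, URE-delta/+;Tet2+/+, URE+/+;Tet2+/- and URE+/+;Tet2-/-. The URE is the upstream regulatory element of Spi1, the gene of the myeloid transcription factor PU.1, and Tet2 encodes an enzyme that oxidises methylated cytosine in DNA. No normal library carries the URE deletion together with Tet2 loss, so leukemia and the combined genotype cannot be told apart. Lanes 6 and 7 hold the AML libraries and 1 normal library each, and lane 8 holds 2 normal libraries only. Strain, age, the way Tet2 was disrupted and the libraries on each side of the comparison are not stated in the sources used.

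The values come from the authors' table of leukemic against non-leukemic cells, whose name refers to low PU.1, with 1 log2 fold change per region and a p-value adjusted over the whole table. A positive value means higher accessibility in leukemic cells. A region is called higher or lower here when the adjusted p-value is under 0.001, the limit at which the authors' own lists of changed regions are recovered exactly. Values for single libraries were not used, so no spread between mice, no depth and no interval can be given for any value printed. The table also gives a log2 average abundance per region, a measure of how many reads a region held over both sides. That reading rests on the column's position and range, and whether it is scaled by length is not given.

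Open chromatin at a gene end is mostly the nucleosome-depleted promoter, where RNA polymerase II and general factors assemble. Many mammalian promoters lie in CpG islands, stretches rich in CG dinucleotides that usually stay unmethylated and open in most cell types. CpG-poor promoters are more often active in particular cell types. Broad open regions at gene ends arise where a promoter merges with neighbouring elements, at paired promoters of neighbouring genes, and at genes under dense regulation such as regulators of cell identity.

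The label fits the position of most of the regions. A RefSeq start site lay inside 3491 of them, and 807 held at least 2 listed start sites. By the strand of the nearest gene, 3488 sat at its start and 91 at its far end, and 904 had a nearest gene whose strand was not listed. Ends of a single protein-coding gene lay near 3825 regions, and 658 lay near the ends of 2 or more. The median width was 1978 bp, and the widest, at Pcdh7, spanned 6347 bp.

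The promoters below belong to the 4 highest and the 4 lowest called regions that have a listed start site inside them and a listed sequence, leaving aside the low stretch of chromosome 2 described further on. They are shown so that the CpG content of promoters that gained and lost accessibility can be compared by eye. Each runs 5′ to 3′ from 250 bases before to 50 bases after the start site, from RefSeq on GRCm38.p6, with every CG dinucleotide in capitals. The first 4 belong to regions that rose and the last 4 to regions that fell.
Wwtr1: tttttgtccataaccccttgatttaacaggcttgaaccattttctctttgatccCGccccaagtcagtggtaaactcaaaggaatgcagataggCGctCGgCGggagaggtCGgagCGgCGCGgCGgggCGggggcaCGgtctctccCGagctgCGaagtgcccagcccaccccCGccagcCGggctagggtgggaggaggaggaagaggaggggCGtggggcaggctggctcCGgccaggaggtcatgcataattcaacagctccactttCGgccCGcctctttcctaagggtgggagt
Rnf123: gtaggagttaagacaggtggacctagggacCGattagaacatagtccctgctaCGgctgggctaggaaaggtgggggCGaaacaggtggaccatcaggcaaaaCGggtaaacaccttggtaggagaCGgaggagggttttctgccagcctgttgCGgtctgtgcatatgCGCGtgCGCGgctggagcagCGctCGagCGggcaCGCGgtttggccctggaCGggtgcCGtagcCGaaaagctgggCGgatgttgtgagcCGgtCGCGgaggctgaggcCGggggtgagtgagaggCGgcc
Hexim1: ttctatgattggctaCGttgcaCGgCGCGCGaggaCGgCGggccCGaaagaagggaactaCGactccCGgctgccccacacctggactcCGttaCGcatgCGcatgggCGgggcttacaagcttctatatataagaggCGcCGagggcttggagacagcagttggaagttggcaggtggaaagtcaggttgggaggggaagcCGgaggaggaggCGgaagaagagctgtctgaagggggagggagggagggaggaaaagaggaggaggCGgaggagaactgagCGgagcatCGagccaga
Aox1: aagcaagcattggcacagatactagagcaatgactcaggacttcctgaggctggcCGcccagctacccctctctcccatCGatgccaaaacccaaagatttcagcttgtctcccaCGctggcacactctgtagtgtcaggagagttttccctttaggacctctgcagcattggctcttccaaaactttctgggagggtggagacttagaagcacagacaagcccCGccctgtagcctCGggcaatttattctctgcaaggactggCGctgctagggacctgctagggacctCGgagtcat
P2ry12: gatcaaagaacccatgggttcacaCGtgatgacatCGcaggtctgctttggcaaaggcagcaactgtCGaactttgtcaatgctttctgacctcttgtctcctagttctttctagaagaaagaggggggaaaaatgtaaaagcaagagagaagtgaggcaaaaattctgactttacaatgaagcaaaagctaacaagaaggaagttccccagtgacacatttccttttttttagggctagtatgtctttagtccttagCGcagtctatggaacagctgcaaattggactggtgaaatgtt
Agpat4: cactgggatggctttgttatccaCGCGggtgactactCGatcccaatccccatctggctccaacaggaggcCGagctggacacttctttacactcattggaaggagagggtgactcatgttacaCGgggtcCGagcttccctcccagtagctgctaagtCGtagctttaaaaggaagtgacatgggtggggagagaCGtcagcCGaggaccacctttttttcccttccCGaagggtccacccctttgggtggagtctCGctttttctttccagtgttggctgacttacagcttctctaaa
Syne1: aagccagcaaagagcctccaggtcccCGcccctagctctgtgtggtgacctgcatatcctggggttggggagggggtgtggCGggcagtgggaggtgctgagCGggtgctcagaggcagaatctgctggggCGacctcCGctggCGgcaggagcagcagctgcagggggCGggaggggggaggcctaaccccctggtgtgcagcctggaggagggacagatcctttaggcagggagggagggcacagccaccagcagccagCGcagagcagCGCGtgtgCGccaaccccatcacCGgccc
Fcrl1: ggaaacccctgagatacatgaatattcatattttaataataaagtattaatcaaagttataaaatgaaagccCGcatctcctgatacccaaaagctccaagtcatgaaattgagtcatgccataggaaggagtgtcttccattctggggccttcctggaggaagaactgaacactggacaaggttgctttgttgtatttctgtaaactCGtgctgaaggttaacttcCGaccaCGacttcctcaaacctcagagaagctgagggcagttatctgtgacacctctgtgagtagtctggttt

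These promoters lie at chr3:57575827-57576126 on the minus strand for Wwtr1, chr9:108079252-108079551 on the minus strand for Rnf123, chr11:103116075-103116374 on the plus strand for Hexim1 and chr1:58029719-58030018 on the plus strand for Aox1. The other 4 lie at chr3:59262936-59263235 on the minus strand for P2ry12, chr17:12119034-12119333 on the plus strand for Agpat4, chr10:5550643-5550942 on the minus strand for Syne1 and chr3:87376137-87376436 on the plus strand for Fcrl1. The Wwtr1, Rnf123 and Hexim1 promoters hold 19, 24 and 21 CG dinucleotides, and that of Aox1 holds 7. The Agpat4 and Syne1 promoters hold 11 and 12, and those of P2ry12 and Fcrl1 hold 4 each. Per base composition, the observed count over the expected count (the CpG ratio) was 0.667, 0.893, 0.861 and 0.319 in the order of the 4 that rose. It was 0.302, 0.516, 0.347 and 0.302 in the order of the 4 that fell. These extremes do not stand for all called regions. Outside the low stretch the median ratio was 0.69 over the 31 regions that rose and hold a listed promoter. Over the 48 such regions that fell it was 0.64.

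Among the 4483 broad gene-end regions 44 rose and 105 fell in leukemic cells. These are 0.981% and 2.34% of them, against 1.24% and 1.22% of all regions in the table. At an adjusted p-value under 0.05, 472 (10.5%) were higher and 444 (9.90%) lower, against 7.98% and 9.21% of all regions. The median log2 fold change was 0.29, with quartiles of -0.32 and 0.79, and 60.2% of the regions had a positive value. The median over all autosomal regions was 0.03. Narrower gene-end regions had a median of 0.22, with 149 called higher and 141 lower, and broad regions away from gene ends had a median of -0.22, with 90 called higher and 175 lower. The authors' set of unchanged regions, those with an adjusted p-value over 0.9, holds 599 of the broad gene-end regions.

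A single stretch of chromosome 2 held 41 of the 105 broad gene ends that fell. The stretch is the longest run of 5 Mb bins whose other regions have a median under -0.5, and it reaches from 55 to 160 Mb. Spi1 lies in it but has no broad region at its ends. The 233 broad gene ends in the stretch had a median of -0.98 (quartiles -1.16 and -0.79), and 7 of them had a positive value. None of the 233 was called higher at either threshold, while 17.6% were called lower at 0.001 and 71.7% at 0.05. Of all autosomal regions in the stretch 5.37% and 28.8% were lower at these thresholds. The shares were 8.64% and 38.3% for narrower gene ends and 14.5% and 48.0% for broad regions away from gene ends. The median log2 abundance there was 3.30 for broad gene ends and -1.34 for all autosomal regions. The 509 narrower gene-end regions there had a median of -0.83, the 221 broad regions away from gene ends -1.28, and the 6707 regions that are not broad gene ends -0.98, against 0.07 for such regions elsewhere. Lower accessibility and fewer copies of the DNA cannot be told apart in this table. The lowest called values of the stretch in the authors' deposited table were at Dusp2, a phosphatase gene of early activation (-3.15), Cst3, the cystatin C gene (-2.09), Itga4, an integrin of marrow homing (-1.91), Dnajc10, an endoplasmic reticulum chaperone (-1.89), and Rassf2, a Ras-association domain gene (-1.81).

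**Figure D1:**
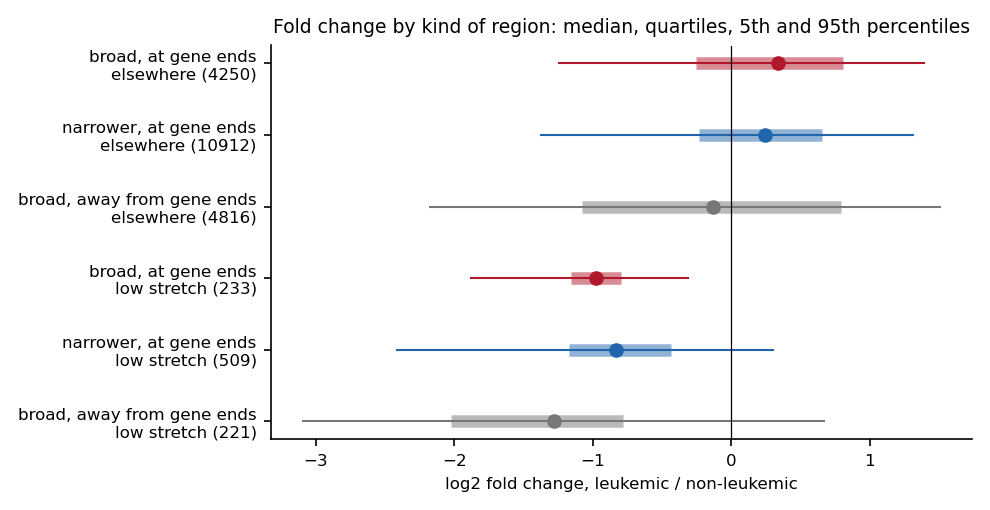
Log2 fold change (x axis) of broad regions at gene ends, narrower regions at gene ends and broad regions away from gene ends, outside and inside the low stretch of chromosome 2. Points are medians, thick bars quartiles and thin lines the 5th to 95th percentiles, with the number of regions in parentheses. The broad gene ends have a median of 0.34 outside and -0.98 inside the stretch.

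Outside the stretch 4250 broad gene ends remained, with a median of 0.34. Of these, 44 (1.04%) rose and 64 (1.51%) fell, against 1.29% and 1.03% of the 154038 regions outside the stretch. At an adjusted p-value under 0.05 the order turned, with 472 (11.1%) higher and 277 (6.52%) lower, against 8.28% and 8.33%. The fold changes by abundance, width, number of genes, CpG ratio, motif and neighbours leave the stretch out. The promoter shares over 3491 regions and the values by far end, gene list and chromosome include it. The 64 that fell had a median of -2.19 and the 44 that rose one of 2.07. Values beyond 2 in size were reached by 38 of the 64 and by 29 of the 44. The regions that rose were fainter, with a median log2 abundance of 1.49 against 2.50 for those that fell.

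The highest broad gene end was that of Wwtr1, which encodes TAZ, a transcriptional coactivator of the Hippo pathway. Its region at chr3:57574166-57576841 had a fold change of 4.08 (adjusted p = 9.12e-07) per the authors' deposited table, at a log2 abundance of 0.80. Next came the region at chr9:108078485-108080478, where the start of Rnf123, a ubiquitin ligase gene, lies near an end of Mst1, with 3.68 (adjusted p = 4.02e-06) per the authors' deposited table. Hexim1, whose protein holds the elongation kinase P-TEFb inactive, followed with 3.51 (adjusted p = 3.30e-05) in the authors' deposited table. Aox1, an aldehyde oxidase gene, had 2.99 (adjusted p = 1.96e-05) and the gene C130050O18Rik 2.92 (adjusted p = 4.59e-05) in the authors' deposited table.

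Other gains belong to several kinds of gene. The serine protease gene Ctsg, of neutrophil primary granules, had 2.80 (adjusted p = 2.48e-05) in the authors' deposited table. Rgma, a repulsive guidance molecule and bone morphogenetic protein coreceptor, reached 2.67, Lox, a collagen crosslinking enzyme gene, 2.60, and Mnat1, a subunit of the CDK-activating kinase, 2.57 in the authors' deposited table. Rhoj, a small GTPase gene, had 2.37 in the authors' deposited table. Coagulation factor genes F13a1 and F10 had 2.30 and 2.01 in the authors' deposited table, grouped after their values were seen. The only called gain on chromosome 2 was a region 4401 bp wide at Cebpb, which encodes a myeloid transcription factor of emergency granulopoiesis. Cebpb had 2.16 in the authors' deposited table and lies beyond the far edge of the low stretch.

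Among losses, the lowest value belonged to a region at the far end of Slc35b4, a nucleotide sugar transporter gene, with -3.99 (adjusted p = 3.46e-05) in the authors' deposited table. It is 1 of 4 called regions among the 91 at far ends, and all 4 fell (4.40%, against 1.22% of all regions). At an adjusted p-value under 0.05, 9 of the 91 were higher (9.89%) and 17 lower (18.7%). The shares of all regions at that threshold were 7.98% and 9.21%. The median over the 91 was 0.24, with 50.5% of values positive. The other 3 called far-end regions were those of Olfr1509, Gimap6 and Sltm, at -2.67, -2.29 and -2.26 in the authors' deposited table, named after their values were seen. The lowest value at a start was that of P2ry12, an ADP receptor of platelets and microglia. Its region at chr3:59260226-59264285 had -3.55 (adjusted p = 4.77e-05) in the authors' deposited table. Med12l, a Mediator kinase module gene within whose extent P2ry12 lies, had its own broad gene end with -2.21 (adjusted p = 1.59e-04) in the authors' deposited table.

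The remaining regions among the 10 lowest belong to genes of different roles. B4galt6, a lactosylceramide synthase gene, stood at -3.42 and Agpat4, an acyltransferase gene of phospholipid synthesis, at -3.41 in the authors' deposited table. Syne1, the gene of a nuclear envelope linker, had -3.29 (adjusted p = 1.37e-06), and Fcrl1, an Fc receptor-like gene of B cells, had -3.24 (adjusted p = 5.07e-05) in the authors' deposited table. Kazn, a gene of a cell junction protein, had -3.02, Inpp4b, a phosphoinositide phosphatase gene, -2.92, Trmt12, a tRNA modification gene, -2.90, and Nlrp1a, an inflammasome sensor gene, -2.86 in the authors' deposited table. Inpp4b had the strongest signal of these 4, with a log2 abundance of 3.69, and Kazn the weakest, at -0.01.

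**Figure D2:**
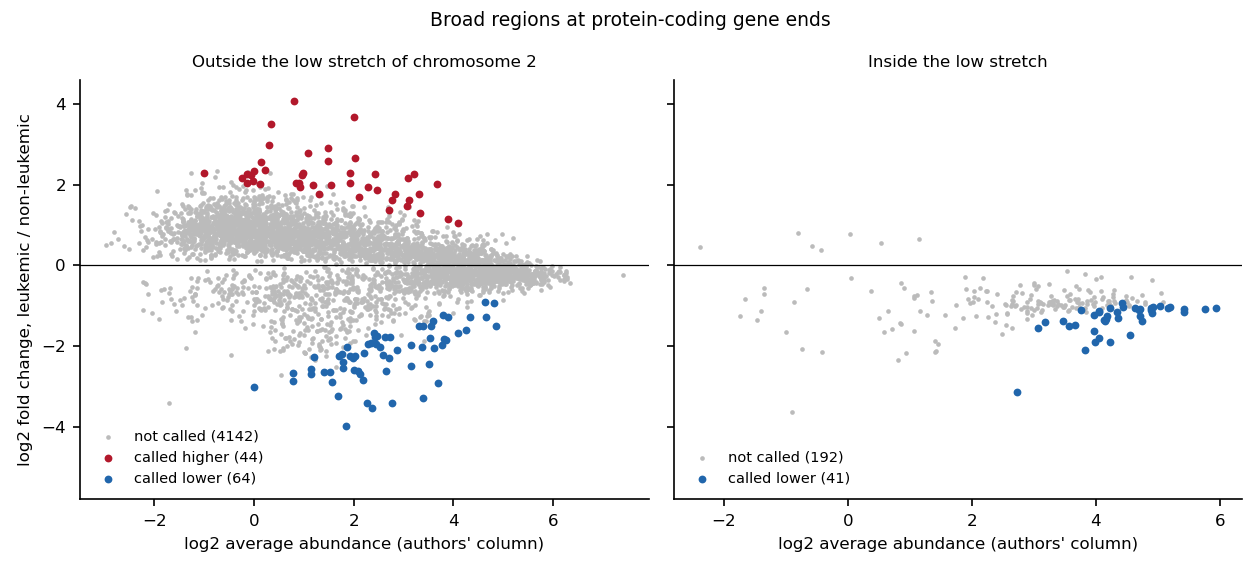
Each point is 1 broad region at a protein-coding gene end, outside (left) and inside (right) the low stretch of chromosome 2. The x axis is the authors' log2 average abundance and the y axis the log2 fold change of leukemic over non-leukemic cells. Red points are the 44 regions called higher and blue points the 64 and 41 called lower. Most faint regions on the left lie above 0, and most of the brightest lie a little below it.

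The fold change of broad gene ends moved with their abundance. When they were split into 5 equal classes of log2 abundance, the faintest had a median of 0.86 outside the low stretch, with 88.8% of 881 regions positive. The medians of the following classes were 0.73, 0.40, 0.10 and -0.18, and 79.2%, 65.3%, 53.6% and 26.9% of the regions were positive. Class bounds lay at log2 abundances of -0.07, 1.1, 2.64 and 4.04. Across the 4250 regions Spearman's correlation of fold change with abundance was -0.51, a description over regions that share the same libraries. It was -0.06 over 10912 narrower gene-end regions and -0.15 over 4816 broad regions away from gene ends.

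In the faintest class, narrower gene-end regions had a median of 0.26 and broad regions away from gene ends one of 0.49, both under the 0.86 of the broad gene ends. In the brightest class the 3 kinds had medians of -0.01, -0.18 and -0.18 in that order. Few of the fold changes in the faintest class were small, since 2.50% of the broad gene ends there lay within 0.25 of 0. The same share was 3.0% for broad regions away from gene ends and 18.5% for the narrower gene-end regions. In the brightest class it was 56.1%, 45.5% and 72.9% for broad gene ends, broad regions away from them and narrower gene ends. Whether the deposited fold change is that of a whole region or of 1 window within it is not given, and its part in these shares was not tested.

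**Figure D3:**
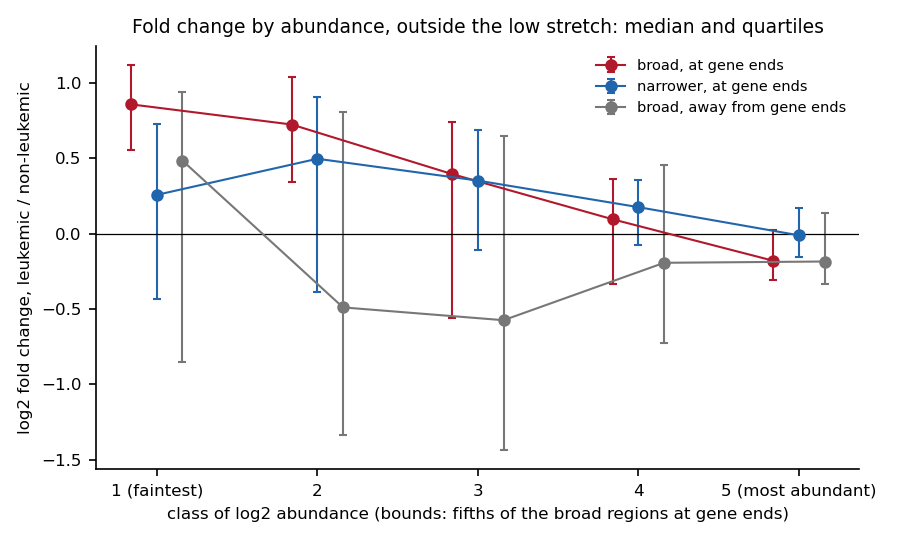
Median log2 fold change (points) with quartiles (bars) in 5 classes of log2 abundance of equal size for the broad gene-end regions, outside the low stretch. Broad gene ends fall from 0.86 in the faintest class to -0.18 in the brightest. The narrower gene ends stay between -0.01 and 0.50, and the broad regions away from gene ends lie below 0 in every class but the faintest.

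Few of the faint broad gene ends passed the threshold, although most lay above 0. In the faintest class 4 rose (0.454%) and 0 fell, against 0.735% and 0.0433% of all autosomal regions of that abundance outside the stretch. At an adjusted p-value under 0.05 there were 129 higher (14.6%) and 2 lower (0.227%), against 5.95% and 3.90%. The class with the most calls was the middle one, with 13 that rose (1.52%) and 32 that fell (3.73%). All autosomal regions of that abundance had larger shares, 2.84% and 7.01%. In the brightest class 1 rose (0.120%), Pyroxd2, an oxidoreductase domain gene, at 1.04 in the authors' deposited table. In that class 7 fell (0.839%), and of all autosomal regions of that abundance 0.374% rose and 0.561% fell. Pyroxd2 was named after its value was seen. The faintest called gain was that of Slc20a2, a phosphate transporter gene that shares its region with Smim19, at a fold change of 2.29 and a log2 abundance of -1.0 in the authors' deposited table.

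The most abundant broad gene ends had small fold changes. The 5 with the highest abundance lay between 6.27 and 7.40 in log2 abundance. Sp1 and Sp4, genes of zinc finger factors that bind GC boxes, had -0.19 and -0.45 in the authors' deposited table. Gsk3b, a kinase gene of Wnt and insulin signalling, stood at -0.33 in the authors' deposited table. That at LOC115489044 and Zfand5 had -0.29, and the most abundant of all, at Gm20783 and LOC108167694, had -0.23 in the authors' deposited table. None of these 5 passed either threshold.

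Width went with a higher median and with lower abundance. Regions of 1500 to 2000 bp had a median log2 fold change of 0.26 (2188 regions), those of 2000 to 3000 bp 0.44 (1704), those of 3000 to 4000 bp 0.48 (282) and those of 4000 bp or more 0.76 (76). The median log2 abundance of these classes was 2.04, 1.35, 1.19 and 1.32. Spearman's correlation of width with abundance was -0.11 over the broad gene ends and 0.62 over the narrower ones. Of the widest regions, 4 are named here, and none of these 4 was called. Pcdh7, a protocadherin gene, had 0.96, Gadd45g, a growth arrest gene, 0.86, the paired start of Zbtb1 and Zbtb25 1.18, and Cd93, a receptor gene inside the low stretch, -2.15 in the authors' deposited table. At the width limit itself, the regions of exactly 1500 bp at Afap1 and Frat1 had 1.08 and 0.36, and those of 1499 bp at Tuft1, Syngr2 and Rbm39 had 0.33, 0.31 and -0.87 in the authors' deposited table. Of these, Rbm39 lies inside the low stretch and was called lower.

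Regions near 1 gene and near several had similar medians. The 3626 broad regions near 1 protein-coding gene had a median of 0.34, and the 624 near 2 or more had 0.38. Calls were a larger share near 1 gene, with 41 higher (1.13%) and 60 lower (1.65%), than near several, with 3 higher (0.481%) and 4 lower (0.641%). Of all regions outside the low stretch, 1.29% were higher and 1.03% lower at 0.001. At an adjusted p-value under 0.05, 262 of the 3626 were lower near 1 gene (7.23%) and 15 of the 624 near several (2.404%). The higher share was 11.2% against 10.4%. Of all regions outside the stretch, 8.28% were higher and 8.33% lower at 0.05. The difference between regions near 1 gene and near several was not tested.

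Promoters inside broad gene ends were richer in CG dinucleotides than promoters in general, and CpG-poor promoters made up a larger share of the called ones than of the rest. They had a median CpG ratio of 0.83, against 0.57 over the 21263 listed promoters of protein-coding genes, and 7.08% against 39.4% lay under 0.4. By the mean over listed starts, 237 broad gene ends lay under 0.4 and 3254 did not, against 888 and 4128 narrower gene ends. Outside the low stretch the median ratios of broad and narrower gene ends were 0.83 and 0.45 in the faintest class of abundance. In the brightest class they were 0.88 and 0.84. Among broad gene ends outside the low stretch that fell, 16 of 48 with a listed promoter (33.3%) lay under 0.4. The share was 7 of 31 (22.6%) among those that rose and 6.33% among those not called. P2ry12, Syne1 and Fcrl1, whose promoters are printed above, are 3 of the 16. Of those that rose, Aox1 has such a promoter, as do C130050O18Rik, Ccdc88b, Ephx3, F10, F13a1 and Rhoj, listed after their values were seen.

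The 226 broad gene ends with a CpG ratio under 0.4 had a median of -0.26, with 7 called higher (3.10%) and 16 lower (7.08%). The 3062 with a ratio of 0.4 or more had a median of 0.35, with 24 called higher (0.784%) and 32 lower (1.05%). Both directions of call were thus more frequent among the CpG-poor ones. Within classes of abundance the CpG-poor regions had the lower median in each. In the faintest class it was 0.69 against 0.88, and in the following classes -0.48 against 0.76, -0.84 against 0.42, -0.44 against 0.12 and -0.53 against -0.18. The brightest class holds only 13 CpG-poor regions. Narrower gene ends showed a difference of the same sign, with -0.04 for 843 CpG-poor and 0.24 for 3937 other regions.

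**Figure D4:**
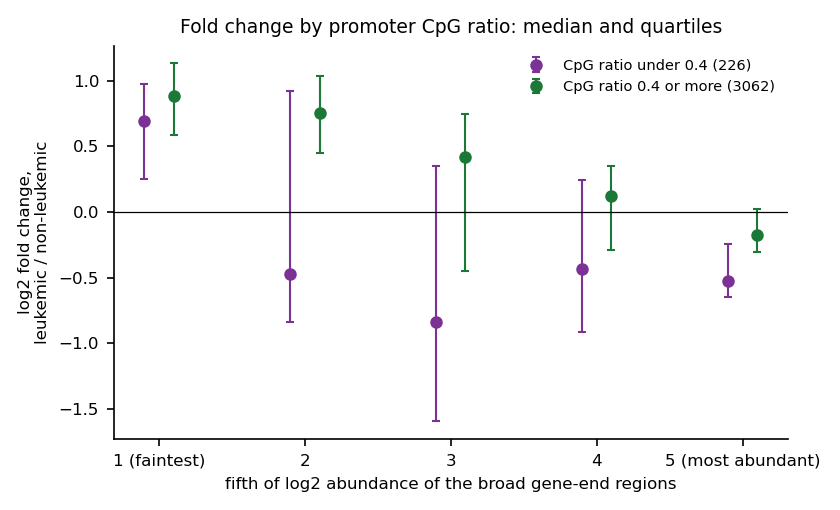
Median log2 fold change (points) with quartiles (bars) of broad gene-end regions with a listed promoter inside, outside the low stretch, in the 5 classes of log2 abundance. Purple marks the 226 regions with a CpG ratio under 0.4 and green the 3062 with 0.4 or more. The purple median is the lower one in every class, with the widest gap in the middle class, at -0.84 against 0.42.

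Short motifs were counted on both strands of the same windows of 300 bases. The GC box GGGCGG, bound by Sp factors, was in 74.4% of the 3491 promoters in broad gene ends and in 46.2% of all listed promoters. The ETS motif of promoters, CCGGAAGT, was in 7.30% against 5.15%, and the MYC-type E-box CACGTG in 10.5% against 7.84%. The TATA box TATAAA was in 6.24% against 12.6%. The PU.1-type motif GAGGAAGT, which shares its GGAAGT with the promoter ETS motif, was equally frequent, at 3.15% against 3.13%. The 104 broad gene ends with it outside the low stretch had a median fold change on the log2 scale of -0.09 at a median log2 abundance of 2.25, and the 3184 without it 0.34 at 1.82. CCGGAAGT was in 0 of the 48 promoters that fell and in 1 of the 31 that rose. GAGGAAGT was in 3 of the 48 that fell (6.25%), Fcrl1 among them, and in 2 of the 31 that rose (6.45%). A match describes letters in a window and says nothing of binding.

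Regions around the called broad gene ends tended to the same side. Neighbours here are the regions within 50 kb that are not themselves broad gene ends. Around the 44 that rose the median of the neighbour medians was 0.70. Of the 44, 27 (61.4%) had at least 1 neighbour called higher and 0 had one called lower. Around the 64 that fell the median of the neighbour medians was -0.46, with 21 (32.8%) beside a region called lower and 1 beside a region called higher. Around the 4142 not called it was 0.18, with 13.3% beside a region called higher and 8.50% beside one called lower. Over 4119 broad gene ends with at least 3 neighbours, Spearman's correlation with the neighbours' median was 0.34, a description since neighbours share their libraries and depth. Syne1 had 5 called lower within 50 kb, the most among the 10 lowest, and its 15 neighbours had a median of -1.36. Wwtr1 stood apart from its surroundings, with 4 neighbours at a median of 0.17 and none called. A lack of called neighbours was common among the 10 highest and the 10 lowest. Hexim1, Mnat1, Rhoj, C130050O18Rik, Slc35b4, Fcrl1, Kazn, Inpp4b, Trmt12 and Nlrp1a had none either. The medians around Hexim1, Slc35b4 and Trmt12 were 0.40, 0.19 and 0.42.

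Gene lists chosen for blood cells and for basic cell functions were read at the broad gene ends, with the narrower gene-end regions beside some of them. Of the 29 lists, the mast cell and basophil list had no broad gene end. List medians are read against 0.29 for all broad gene ends and 0.03 for all autosomal regions. The following lists of general cell machinery had medians above that of all broad gene ends, ribosomal protein genes by the most. Broad gene ends of ribosomal protein genes had a median of 0.79 over 17 regions at a low median log2 abundance of 0.14, with 15 positive and 0 called. Respiratory chain genes had a median of 0.50 over 23 regions, Zfp zinc finger genes 0.44 over 90, proteasome genes 0.42 over 15 and chromatin modifier genes 0.38 over 27, all with 0 called. The narrower gene-end regions of these 5 lists had medians from 0.25 (Zfp genes) to 0.36 (ribosomal protein genes). The broad gene ends of respiratory chain, Zfp, proteasome and chromatin modifier genes had median log2 abundances of 0.87, 1.28, 0.66 and 2.11. At an adjusted p-value under 0.05 the ribosomal list had 1 higher and 0 lower, the respiratory list 4 and 1, the Zfp list 13 and 4, the proteasome list 2 and 1 and the chromatin list 1 and 3. Of the 3 lower chromatin regions, those of Dnmt3b and Asxl1 lie inside the low stretch. Beside these and the later lists, 7.98% of all regions were higher and 9.21% lower at that threshold. The shares of all regions at 0.001 were 1.24% and 1.22%.

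Other lists of general functions held at least 1 call. The 21 regions of RNA polymerase II elongation and Mediator genes had a median of 0.41, with Hexim1 up and Med12l down as given above. Of 28 heat shock and chaperone regions, with a median of 0.39, the cochaperone gene Dnaja4 rose to 1.63 and Dnajc10, inside the low stretch, fell by 1.89 on the log2 scale in the authors' deposited table. Splicing regulator and translation factor genes had medians of 0.27 over 41 regions and 0.37 over 27, and of 0.33 and 0.51 outside the low stretch. Their only calls were losses inside the low stretch, at Hnrnpa3, an RNA-binding protein gene (-1.06), and Eif3j1, a translation initiation factor gene (-1.26), in the authors' deposited table. For cell cycle genes the median was 0.37 over 16 regions, with 1 call at E2f1, the S phase transcription factor gene (-1.05 in the authors' deposited table), also inside the stretch. Solute carrier genes had a median of 0.04 over 89 regions, and of 0.16 outside the low stretch. Outside the stretch Slc20a2 rose, and Slc22a23 and Slc15a3 fell to -1.75 and -1.60 in the authors' deposited table.

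Several lists of blood cell identity had medians under 0 at their broad gene ends, though not all did at their narrower ones. Stem and progenitor genes had a median of -0.33 over 15 regions, with 6 positive and 1 called. The call was at Ikzf2, the gene of the transcription factor Helios, which fell to -2.03 (adjusted p = 3.56e-05) in the authors' deposited table. Of the others in that list, Meis1, which encodes a homeobox factor of blood stem cells, had -1.81 with an adjusted p of 0.00452 in the authors' deposited table. Kit, the receptor by which the cells were sorted, had -0.19 (adjusted p = 0.913), and Runx1 0.31 (adjusted p = 0.446) in the authors' deposited table. Leukemia genes had a median of -0.12 over 20 regions and 0 calls, with 0 higher and 3 lower at an adjusted p-value under 0.05. Outside the low stretch, which holds Asxl1, 1 of the 3, and Wt1, the median was -0.05. Tet2 itself had -0.42 (adjusted p = 0.155) at its broad gene end in the authors' deposited table. The list of known PU.1 target genes had a median of -0.49 over 8 regions. Among them Ptprc, the gene of the leukocyte antigen CD45, fell to -2.63 (adjusted p = 5.19e-05) in the authors' deposited table. The narrower gene-end regions of the stem and progenitor and the leukemia lists had medians above 0, 0.10 over 20 and 0.42 over 17. Those of the known PU.1 target list had a median of -0.61 over 29.

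ETS factor genes were bright and little changed, with a median of -0.20 over 7 regions, a median log2 abundance of 4.96 and 0 calls. The single positive one was Etv6, a repressor gene often altered in leukemia, at 1.03 in the authors' deposited table. Interferon regulatory factor genes had a median of -0.19 over 7 regions with 0 calls. Immediate early and AP-1 genes had -0.25 over 17 regions at a median log2 abundance of 4.08. Only Dusp2, inside the low stretch, was called there, and Fos and Junb had -0.16 and -0.13 in the authors' deposited table. Krueppel-like factor genes had a median of 0.03 over 10 regions with 0 calls. BCL2 family genes had -0.14 over 7, and 0.20 without Bcl2l11, which lies inside the low stretch. They ran from -2.13 at Bcl2a1b to 1.71 at Bcl2l13 in the authors' deposited table, with 0 calls. Bcl2a1b is 1 of several near-identical copies, so its reads may be shared between them. At an adjusted p-value under 0.05 the ETS and interferon regulatory factor lists still had 0 calls. The Krueppel-like list then had 1 in each direction and the BCL2 family 1 higher and 3 lower, Bcl2l11 among the 3. The narrower gene-end regions of all these lists had medians above 0. Their medians were 0.32 for ETS, 0.24 for interferon regulatory factor, 0.15 for immediate early, 0.14 for Krueppel-like and 0.47 for BCL2 family genes.

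Marker lists of other blood cells had few broad gene ends. The sort removes lymphoid and erythroid cells, and their lists are given for description. A fold change between the sides cannot show whether either side was free of these cells. Megakaryocyte genes had 4, all negative, with a median of -1.12 at adjusted p-values under 0.05 and 0 called at 0.001. They were Gp9 at -1.37, Thbs1, inside the low stretch, at -1.17, Itgb3 at -1.07 and Rap1b at -0.56 in the authors' deposited table. B-cell genes had 4 with a median of -1.02, the lowest at Rag2, inside the stretch, with -3.63 (adjusted p = 0.00324) in the authors' deposited table. Erythroid genes had 7 with a median of -0.25, dendritic cell genes 3 with -0.84, and T or NK cell genes 3 with 0.53, all with 0 called. The narrower gene-end regions of the megakaryocyte, B-cell, dendritic and T or NK lists had medians of -0.73, -0.14, -0.10 and 0.31. Those of the erythroid list had the other sign, at 0.39. Fewer cells of a type and lower accessibility per cell cannot be told apart in bulk libraries, and the part of cell makeup in the calls was not tested. Granulocyte genes had 3 regions, of which Ctsg rose, Gfi1, a repressor gene of granulocyte development, had 0.92 and Retnlg -1.40 in the authors' deposited table. Monocyte and macrophage genes had 6 with a median of 0.84. The narrower gene-end regions of both lists had medians of the other sign, -0.42 over 23 for granulocyte genes and -0.85 over 24 for monocyte and macrophage genes. F13a1 rose, and Tlr4, the endotoxin receptor gene, had -1.13 with an adjusted p of 0.00437 in the authors' deposited table.

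**Figure D5:**
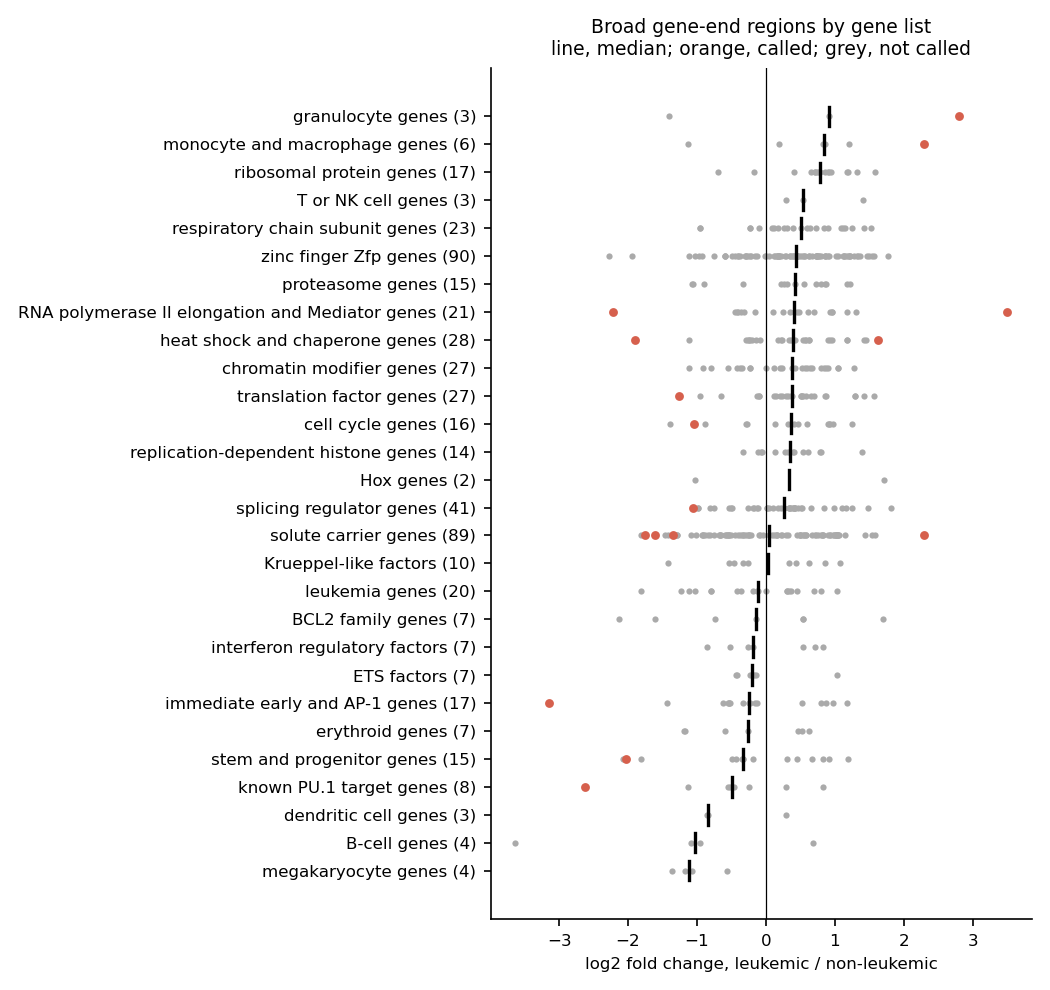
Log2 fold change (x axis) of broad gene-end regions in 28 of the 29 gene lists (y axis, number of regions in parentheses), the low stretch included. Each point is 1 region, orange when called at an adjusted p-value under 0.001 and grey otherwise, and black lines are list medians. Ribosomal protein genes lie high, with a median of 0.79, and megakaryocyte genes low, with -1.12.

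By chromosome, the broad gene ends of chromosome 2 had the lowest median, -0.76 over 384 regions, and those of chromosome 19 the highest, 0.55 over 154. Chromosome 7 followed with 0.50 over 265. On chromosome 3, where P2ry12, Med12l and Fcrl1 lie, the median was 0.02 over 259, with 2 that rose (0.772%, against 1.24% of all regions) and 6 that fell (2.32%, against 1.22%). On chromosome 10, 0 of 240 rose and 7 fell (2.92%, against 1.22% of all regions). Such shares were not particular to chromosomes 3 and 10. On chromosome 15, 5 of 163 fell (3.07%) and 4 rose (2.45%), and on chromosome 5, 8 of 302 fell (2.65%) and 4 rose (1.32%).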

How the data were processed

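ATAC-seq was measured in 8 mouse libraries. Per the submitters' processing notes, reads were processed on GRCm38 (mm10), with Bowtie2 2.4.1, SAMtools 1.10.2 and Genrich 0.6 named there. The title of the deposited table names csaw, whose settings, normalization and any shift for the transposase are not stated in the sources used. The log2 fold change and log2 average abundance per region are deposited values. The p-value and adjusted p-value are the authors' too, and the latter equals a Benjamini-Hochberg adjustment over all 160978 regions to within 2.39e-15. No new test was made, because values per library were not used. Depth per library is unknown. Starts are printed as deposited, and whether they count from 0 or 1 is not given.

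Gene ends were read from RefSeq, GRCm38.p6 (49997 genes, 21900 protein coding, without strand). Strands and promoters came from 21263 RefSeq promoter sequences of 17492 protein-coding genes, matched by gene ID. Promoters absent from that table have no CpG value here. Widths are end minus start. A region's CpG class uses the mean ratio over its listed starts. Motifs and the comparison with all promoters use the listed start of its gene nearest its centre. Named regions are the 10 highest and 10 lowest calls outside the low stretch, the 5 lowest inside it, the 5 widest, the 5 most abundant, every call at a listed gene and 3 on each side of the width limit. A few of these are not reported here. List medians are given beside those of all autosomal regions. Regions and gene lists were chosen with earlier results of these data known. Alternatives changed the threshold, width, distance, overlap rule, abundance range and chromosomes. Member finding and summaries were tested on simulated data. Python 3.11.15, pandas 2.3.3 and numpy 2.4.6 were used.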

Additional observations from a re-analysis of the deposited data

How the results depend on the processing

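No paired analysis was possible because the files used hold 1 value per region for the whole comparison, and for the same reason no library could be left out. The count of broad gene ends that fell, 105, became 444 at an adjusted p-value under 0.05, 33 under 0.0001, 49 at a minimum width of 2000 bp and 61 without chromosome 2. Outside the low stretch it was 64, and 277 there at 0.05. The count that rose, 44, became 472 at 0.05 with or without the low stretch, 11 under 0.0001, 25 at a width of 2000 bp and 28 with the centre within 500 bp. Gains thus made up 29.5% of calls in the main setting, 51.5% at 0.05, 41.3% without chromosome 2, 40.7% outside the low stretch and 63.0% there at 0.05. The median log2 fold change, 0.29, was 0.42 at a width of 2000 bp and moved by less than 0.1 under the other alternatives tried. The lead of 0.51 over broad regions away from gene ends shrank to 0.17 in the top 10% of abundance and to 0.37 in the faintest class outside the low stretch. The lead of 0.08 over narrower gene ends turned to -0.28 in the top 10% of abundance and was 0.60 in that faintest class. The settings outside the low stretch, by abundance class and by listed start site were chosen after seeing the data. The limits are the unknown libraries, depth and window rule behind each fold change.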
